A study of Homo sapiens with 6 samples.

Results

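ATOH1, GFI1, HES6 and SOX4 are 4 transcription factor genes known from progenitors of secretory and neural cells, and they are 4 of the 753 genes in the table analysed here. They were chosen by symbol with their values in this comparison already known, so their differences between groups are given as a description, with no test. The libraries came from AsPC-1, an established human cell line from pancreatic adenocarcinoma. In 3 libraries the cells had received a lentivirus with an shRNA that targets TMPRSS4, which encodes a membrane serine protease (shTMPRSS4 group), and in 3 a control lentivirus (control group), so both groups had been transduced. The labels do not give the hairpin sequence, the time after transduction or whether replicates were separate cultures, so the spread between replicates may be technical. The sample descriptions of the shTMPRSS4 libraries carry the letters si where the titles have sh. TMPRSS4 itself was not analysed here, so the knockdown rests on the labels.

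In the intestinal epithelium, Notch signalling keeps cells on the absorptive path, and cells that escape it turn on ATOH1, a basic helix-loop-helix (bHLH) activator required there for goblet, Paneth and enteroendocrine cells. GFI1 is a zinc finger repressor that acts after ATOH1 in mouse and holds back the endocrine programme in favour of goblet and Paneth cells. HES6 is an unusual member of the HES family, which does not act as a usual Notch-induced repressor but can oppose HES1 and favour differentiation. SOX4, an HMG-box factor of the SoxC group, is active in many progenitors, including those of the mouse endocrine pancreas and intestine, and in carcinomas.

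The genes lie on different chromosomes. In GENCODE release 29 (GRCh38), ATOH1 (ENSG00000172238) is a gene with 1 exon on chromosome 4, 93828753 to 93830964, plus strand. SOX4 (ENSG00000124766), also with 1 exon, spans 21592768 to 21598619 on chromosome 6, plus strand. GFI1 (ENSG00000162676) spans 92474762 to 92486876 on chromosome 1, minus strand, with up to 7 exons. HES6 (ENSG00000144485) spans 238238267 to 238240662 on chromosome 2, minus strand, with 9 annotated transcripts of up to 4 exons. The sequence before each start is shown because the 4 genes moved in the same direction. RefSeq (GRCh38.p14) gave 6 windows for the 4 genes, each from 250 bases before to 50 bases after a start, of which 3 belonged to GFI1. The bases before the most upstream RefSeq start are printed on the gene's own strand, as far as they lie outside annotated exons of the gene. The RefSeq start of HES6 lies inside the GENCODE gene, so its printed stretch is within the gene span but outside its annotated exons. The SOX4 window lay inside the annotated exon, so only 30 bases around each of its E-boxes are printed. Capitals mark E-boxes (CANNTG), the short sites that bHLH factors bind.
ATOH1, chr4:93828503-93828752, plus strand: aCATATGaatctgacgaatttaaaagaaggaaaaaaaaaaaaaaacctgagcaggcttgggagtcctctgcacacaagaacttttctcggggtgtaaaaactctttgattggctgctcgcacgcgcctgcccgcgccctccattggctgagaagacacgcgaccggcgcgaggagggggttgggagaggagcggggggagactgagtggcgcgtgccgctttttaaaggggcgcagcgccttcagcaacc
GFI1, chr1:92486926-92487175, minus strand: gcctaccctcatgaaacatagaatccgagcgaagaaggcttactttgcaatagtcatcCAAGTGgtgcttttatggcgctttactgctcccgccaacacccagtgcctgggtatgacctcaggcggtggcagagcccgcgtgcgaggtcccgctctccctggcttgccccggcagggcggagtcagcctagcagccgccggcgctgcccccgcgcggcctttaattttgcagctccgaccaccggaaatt
HES6, chr2:238240125-238240288, minus strand: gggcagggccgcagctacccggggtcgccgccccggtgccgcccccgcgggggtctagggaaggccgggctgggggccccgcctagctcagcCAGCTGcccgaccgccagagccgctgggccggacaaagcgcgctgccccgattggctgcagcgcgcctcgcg
SOX4 upstream E-box, chr6:21593518-21593547, plus strand: cagcagaaatctCAGCTGtacttctagccc
SOX4 downstream E-box, chr6:21593676-21593705, plus strand: cgttggttacagCAGCTGattggctgcagc

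The E-boxes of HES6 and SOX4 had the same 6 letters, CAGCTG, the form with a GC core that ATOH1 is known to bind. Counted from the start site, the match began at -158 in HES6 and at -221 and -63 in SOX4. Of all 35116 RefSeq windows, 17.9% held CAGCTG and 68.7% held any CANNTG on either strand, and CAGCTG is counted within CANNTG. The ATOH1 E-box was CATATG, at -249, and the printed GFI1 E-box was CAAGTG, at -192. Of the other GFI1 windows, that of the second start had an E-box at -145 and that of the third had none. The N-box CACNAG, a site of HES repressors, matched in the ATOH1 window at -178 and +24 and in the second GFI1 window at -49, and 38.0% of all windows held it. AATC, the core of the GFI1 site, matched in all 6 windows and in 69.0% of all windows. Of the cores bound by SOX factors, ACAAAG matched once, in the HES6 window at -126 (16.1% of all windows), and ACAATG in none of the 6 (10.8% of all windows). GTGGGAA, the site of the Notch effector RBPJ, matched in none of the 6 windows and in 6.25% of all. These are letter matches on both strands, and no binding was measured.

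**Figure D1:**
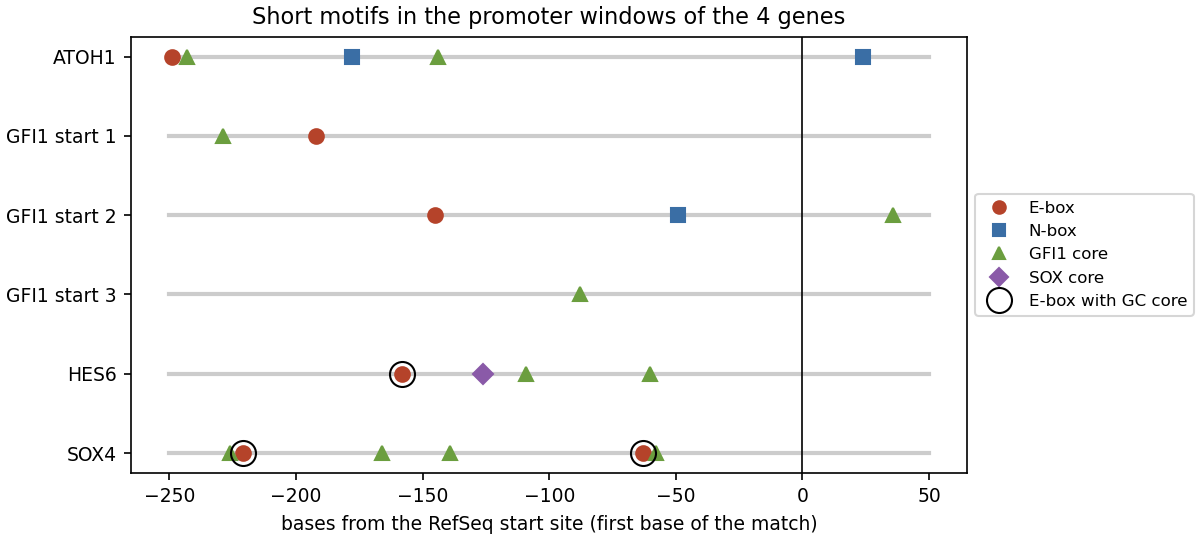
Positions of short motifs in the 6 RefSeq promoter windows of the 4 genes, as the first base of each match on the horizontal axis in bases from the start site, with a row for each window. Ringed circles, E-boxes with a GC core, are present at -158 in HES6 and at -221 and -63 in SOX4.

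The mRNA was enriched with oligo(dT) beads, and the labels do not say whether reads kept their strand. The depth recovered from the table was 46800000 to 53300000 reads in the shTMPRSS4 libraries and 30200000 to 57200000 reads in the control libraries. All rows of the table passed the authors' selection, with a log2 fold change of 1 or more in either direction and a false discovery rate (FDR) of at most 0.049. They are 4.98% of the 15117 genes the authors adjusted over, and 3.67% of those were listed as higher in the shTMPRSS4 libraries. Among the rows, 73.7% were higher and 26.3% lower, so 4 of 4 members higher is read against a table that leans the same way. Levels are in FPKM, fragments per kilobase of transcript scaled to library depth, as the authors deposited them. Differences are of mean log2(depth-scaled count + 0.5) with a standard error (SE) over 3 against 3 libraries. In a bulk sample, more cells of a kind and more RNA per cell cannot be told apart.

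ATOH1, the activator at the head of the secretory lineage, was low in control cells and about 12-fold higher in the shTMPRSS4 libraries. Its level was 9.83, 10.25 and 9.9 FPKM in shTMPRSS4 replicates 1, 2 and 3, against 0.96, 0.84 and 0.64 FPKM in control replicates 1, 2 and 3. The shTMPRSS4 libraries lay close together and far above every control library. The reads behind these levels were 1160, 1143 and 1024 counts in the shTMPRSS4 libraries and 122, 69 and 43 counts in the control libraries. The group means were 9.99 ± 0.225 FPKM in shTMPRSS4 and 0.813 ± 0.162 FPKM in control cells (SD, n = 3 each). The difference was 3.63 ± 0.17 on the log2 scale, and over the 9 pairs of libraries the ratio ran from 10.2 to 16.0. Counts per depth gave 11.8-fold, with an exact 95% interval of 10.3 to 13.5 that covers counting error only. The spread in control cells was a coefficient of variation (CV) of 19.9%, where counting alone gives 12.4%. In the shTMPRSS4 libraries the CV was 2.25%, against 3.01% from counting alone, so the replicates there differed no more than counting allows.

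GFI1, the zinc finger repressor, was the lowest of the 4 in both groups and had few reads. Its counts were 95, 105 and 71 in shTMPRSS4 replicates 1, 2 and 3, against 7, 6 and 3 in control replicates 1, 2 and 3. The corresponding levels were 0.64, 0.75 and 0.55 FPKM in the shTMPRSS4 libraries and 0.04, 0.06 and 0.04 FPKM in the control libraries. The groups did not overlap, but all 16 control reads together bound the size of the fold. Counts per depth gave 14.0-fold, with an exact 95% counting interval of 8.48 to 24.9. The log2 difference was 3.71 ± 0.23. Because 0.01 FPKM is the rounding step of the table, the control levels of GFI1 are known to 1 digit only, and its counts are the better measure. Counting alone gives a CV of 46.3% in the control libraries, where 24.7% was observed in FPKM, and 10.7% in the shTMPRSS4 libraries, where 15.5% was observed.

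HES6, the atypical HES factor, was the most abundant of the 4 and about 3-fold higher in the shTMPRSS4 libraries. It reached 208, 183 and 200.5 FPKM in shTMPRSS4 replicates 1, 2 and 3, against 66.0, 57.0 and 64.6 FPKM in control replicates 1, 2 and 3. Every shTMPRSS4 library exceeded the highest control library at least 2.78-fold. The log2 difference was 1.66 ± 0.09, and the counts, 26341 in the shTMPRSS4 libraries and 6963 in the control libraries, gave 3.13-fold per depth with a counting interval of 3.05 to 3.22. Here the replicates differed by more than counting, with a CV of 6.44% in the shTMPRSS4 libraries, where counting gives 1.07%, and of 7.69% in the control libraries, where it gives 2.17%.

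SOX4, the HMG-box factor, had 82.5, 74.5 and 75.3 FPKM in shTMPRSS4 replicates 1, 2 and 3, against 28.4, 24.8 and 25.8 FPKM in control replicates 1, 2 and 3. The groups were again separate, and replicate 1 was the highest in each. Its log2 difference was 1.56 ± 0.07. With 68345 counts in the shTMPRSS4 libraries and 19465 in the control libraries it was the most deeply read of the 4, at 2.91-fold per depth and a counting interval of 2.86 to 2.95. The spread between replicates, a CV of 5.65% in shTMPRSS4 and 6.99% in control libraries, was above the 0.665% and 1.3% that counting gives.

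**Figure D2:**
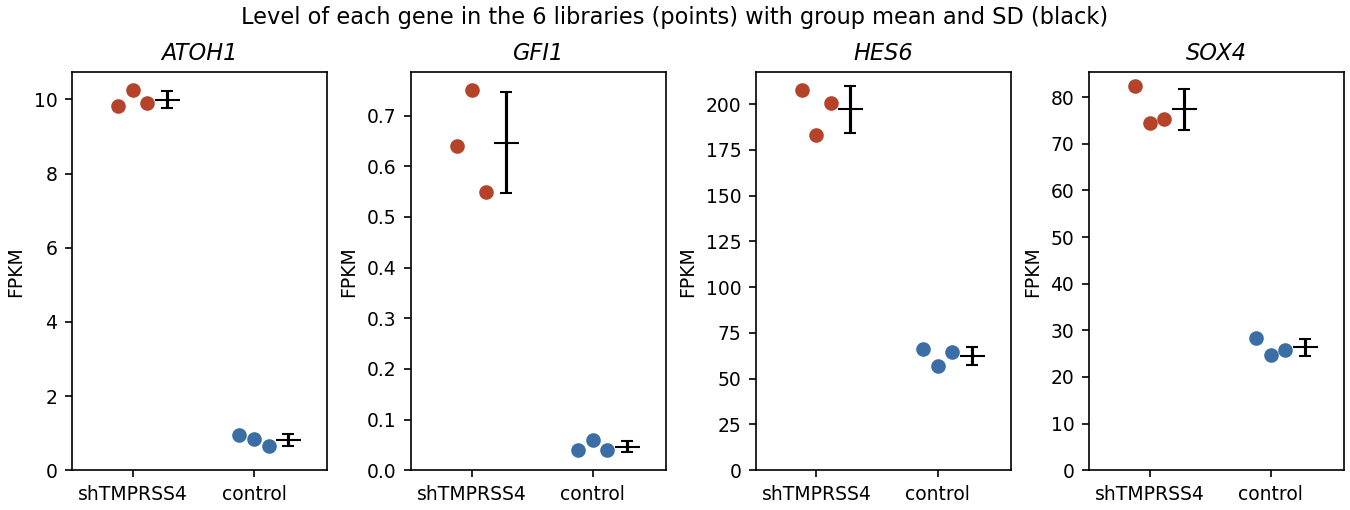
FPKM of each gene in the 3 shTMPRSS4 libraries (left, red) and the 3 control libraries (right, blue), with the group mean and SD in black, each panel on its own linear axis from 0. In each panel the groups are separate, from 10.2-fold between the nearest libraries for ATOH1 to 2.63-fold for SOX4.

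In the authors' deposited table the log2 fold changes were 3.62 for ATOH1, 3.79 for GFI1, 1.66 for HES6 and 1.56 for SOX4. By this value they stood at ranks 91, 85, 272 and 292 of the 753 rows, whose median was 1.33. These values took part in the choice of the genes. In the deposited table the FDR of ATOH1 was 8.08e-103, that of SOX4 8.21e-104, that of HES6 1.33e-89 and that of GFI1 1.56e-11. Of the 555 rows listed as higher, 548 had all 3 shTMPRSS4 libraries above all 3 control libraries, as the 4 genes did (72.8% of all rows).

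**Figure D3:**
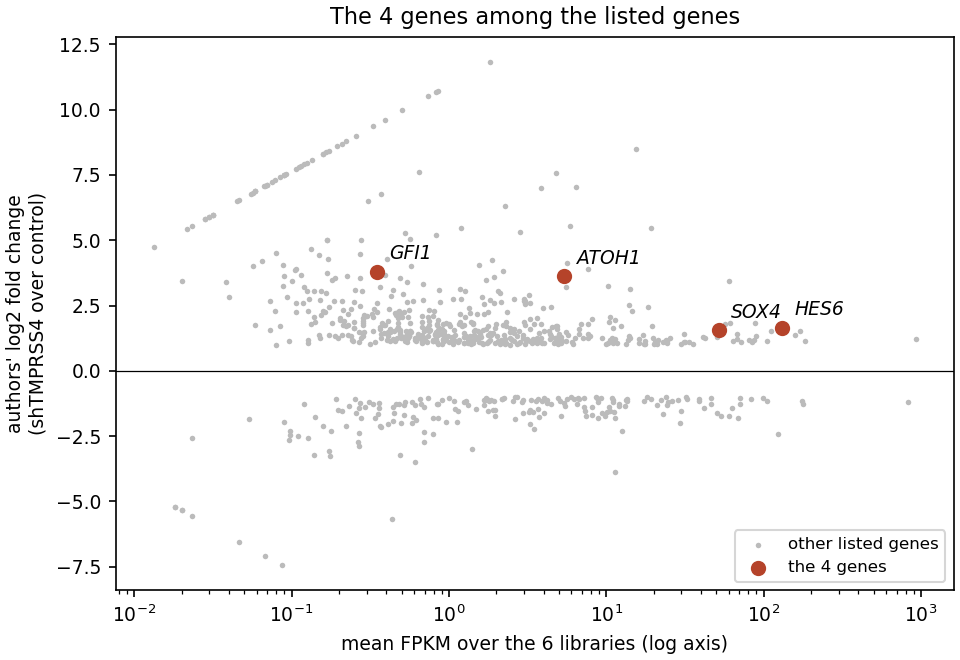
The authors' log2 fold change (vertical axis, shTMPRSS4 over control) against the mean FPKM over the 6 libraries (horizontal log axis) for the 753 listed genes, with the 4 genes in red. ATOH1 and GFI1 lie at 3.62 and 3.79 and HES6 and SOX4 at 1.66 and 1.56, and the straight upper line of points is made of genes at 0 in control cells, whose fold depends on the placeholder of 0.001.

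The order of the levels was HES6, SOX4, ATOH1 and GFI1 in both groups, and no neighbours in it overlapped in FPKM within a group. HES6 stood at rank 6 by mean FPKM among the rows in the shTMPRSS4 libraries and at rank 22 in the control libraries. SOX4 stood at rank 24 in the shTMPRSS4 libraries and 50 in the control libraries. ATOH1 stood at rank 122 in the shTMPRSS4 libraries and 342 in the control libraries, and GFI1 at 508 in the shTMPRSS4 libraries and 649 in the control libraries. The level of HES6 depends on the length by which its reads were divided. Count and FPKM together imply 887 bases for HES6, while its longest annotated transcript has 1600 bases. Divided by that longer length, HES6 would have 109 FPKM in the shTMPRSS4 libraries and 34.7 FPKM in the control libraries, still above SOX4. For ATOH1 and SOX4 the implied lengths, 2212 and 5852 bases, equal their only annotated transcripts.

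Ratios between members within a library do not depend on how libraries are scaled. HES6 was 2.46 to 2.66 times SOX4 in FPKM in the shTMPRSS4 libraries and 2.3 to 2.5 times in the control libraries, ranges that overlap. SOX4 was 7.27 to 8.39 times ATOH1 in the shTMPRSS4 libraries and 29.5 to 40.4 times in the control libraries, which do not overlap. ATOH1 was 13.7 to 18.0 times GFI1 in the shTMPRSS4 libraries and 14.0 to 24.0 times in the control libraries, which overlap. The 4 genes thus fell into a pair with differences of 3.63 and 3.71, ATOH1 and GFI1, and a pair with 1.66 and 1.56, HES6 and SOX4.

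Replicates of HES6 and SOX4 stayed within 0.13 of their group mean on the log2 scale. In shTMPRSS4 replicate 1 the deviations were 0.08 for HES6 and 0.09 for SOX4, and in control replicate 2 they were -0.13 and -0.08. The median deviation over the 159 rows with at least 200 counts in every library was between -0.01 and 0.01 in each library. ATOH1 deviated most in control replicate 3, by -0.32. GFI1 was at -0.31 there, on only 3 counts, and deviated most in control replicate 2, by 0.34. The GFI1 values are thus loose, and a shared deviation of both genes was not tested. Control replicate 3 had the lowest depth, 30200000 reads, and is the single one whose description carries the code L3, the others carrying L4. Without it the log2 difference was 3.47 for ATOH1, 3.56 for GFI1, 1.68 for HES6 and 1.54 for SOX4. What the code stands for is not stated.

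The profiles most like each member were sought among 386 rows with a symbol and a mean of at least 1 FPKM, by the root mean square (RMS) difference of log2 values over the 6 libraries after centring each gene. The row nearest to HES6 was SOX4, and the row nearest to SOX4 was HES6, at an RMS difference of 0.071. Next to HES6 came GSTA2 (0.076) and C9orf116 (0.079), and next to SOX4 came SEPT3 (0.104) and DLL4 (0.105). GFI1 was nearest to CELA3A (0.153), then ATOH1 (0.206) and NPTXR (0.223). ATOH1 was nearest to NPTXR (0.204), CELA3A (0.213) and LCE1E (0.236), and GFI1, under the level needed for the list, was at 0.206. Between the pairs the difference was 1.005 to 1.109. Since all rows were selected for a difference between the same groups, the likeness includes that difference.

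The 4 genes share 5 annotation terms in the table, all on nuclear DNA binding and transcription. Of the 753 rows, 36 carried the term for sequence-specific transcription factor activity, 31 of them higher and 5 lower in the shTMPRSS4 libraries (86.1% higher, against 73.7% of all rows). The 4 genes are among these 31 and were chosen with their values known, so part of this share was fixed by that choice. HES6 had the highest mean FPKM of these 36 in both groups. JUND, an AP-1 subunit, came next in the shTMPRSS4 libraries with 127 ± 2.35 FPKM, against 50.3 ± 2.93 FPKM in control libraries (SD, n = 3 each). SOX4 was at rank 4 of the 36 in the shTMPRSS4 libraries and 6 in the control libraries. ATOH1 was at rank 9 in the shTMPRSS4 libraries and 17 in the control libraries, and GFI1 at 28 in the shTMPRSS4 libraries and 31 in the control libraries.

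The families of the 4 genes had few other listed members. In what follows a gene is called higher or lower by the authors' deposited FDR and fold change, and genes of a list that are not in the table were not analysed here. The lists were chosen with earlier results of these data known, so their shares are a description. Each share stands beside 4.98% of the genes adjusted over, and each direction beside the 73.7% of rows that were higher. A list share is of all genes in the list, and how many of them the authors adjusted over is not known. The shares of the bHLH, HES, SOX and SNAG lists each count 1 of the 4 members, which was chosen as a listed gene. That choice fixed part of each share, and the listed genes other than members were 2, 1, 2 and 1 in that order. Of 21 proneural bHLH factors 3 were listed (14.3%, against 4.98% of the genes adjusted over), ATOH1 and 2 others, all higher. NEUROG3, which specifies endocrine progenitors, had 10.7, 11.6 and 12.4 FPKM in the shTMPRSS4 libraries, against 0.25, 0.25 and 0.24 FPKM in the control libraries. ATOH8, a relative of ATOH1, had 4.5 ± 0.469 FPKM in shTMPRSS4 and 0.0567 ± 0.0231 FPKM in control libraries (SD, n = 3 each), with 18 control counts in all. In the shTMPRSS4 libraries NEUROG3 lay above ATOH1 in FPKM without overlap, and in the control libraries ATOH1 lay above NEUROG3.

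Of 13 HES and HEY repressors 2 were listed (15.4%), HES6 and HES4. HES4, a HES repressor, had 23.5, 16.8 and 29.7 FPKM in the shTMPRSS4 libraries and 13.3, 11.45 and 9.52 FPKM in the control libraries. TMM scaling over the listed rows moved their median by -1.18 on the log2 scale, so rows with smaller differences than that tend to turn. Under it the direction of HES4 turned (log2 difference -0.18). HES1, the Notch target that represses ATOH1, was not analysed here. Of 20 SOX genes 3 were listed (15.0%). Beside SOX4, SOX6 had 1.77, 1.77 and 0.72 FPKM in the shTMPRSS4 libraries and 0.77, 0.7 and 0.64 FPKM in the control libraries, which overlap, and it turned under TMM scaling (-0.28). SOX5 had 24 counts over the shTMPRSS4 libraries and none over the control libraries, at least 6.62-fold higher when 3 counts are set for the control group as its floor. Of 18 SNAG-type zinc finger genes and GFI1 corepressors 2 were listed (11.1%), GFI1 and RCOR2, a corepressor of the CoREST family. RCOR2 had 1.86 ± 0.0404 FPKM in shTMPRSS4 and 0.273 ± 0.0702 FPKM in control libraries (SD, n = 3 each).

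The E proteins pair with ATOH1 on DNA, and the ID proteins block that pairing. Of 7 such genes ID2 alone was listed (14.3%), as lower. It had 14.7, 13.5 and 14.2 FPKM in the shTMPRSS4 libraries and 42.9, 46.6 and 13.8 FPKM in the control libraries. Control replicate 3 thus fell among the shTMPRSS4 libraries, and the difference of ID2 rests on the other 2 control libraries.

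Of 42 Notch ligands, receptors and processing genes 5 were listed (11.9%, against 4.98% of the genes adjusted over). All 5 were higher, as were 73.7% of all rows, with a median log2 fold change of 2.76 in the authors' deposited table. DLL1, a Notch ligand that ATOH1-positive cells present to their neighbours, had 12.9, 11.8 and 13.6 FPKM in the shTMPRSS4 libraries, against 0.18, 0.07 and 0.04 FPKM in the control libraries. The control levels of DLL1 rest on 26 counts in all. NEURL1, an E3 ligase, had 37.8 ± 0.085 FPKM in shTMPRSS4 and 0.86 ± 0.372 FPKM in control libraries. DLL4, another ligand, had 3.83 ± 0.293 FPKM in shTMPRSS4 and 1.29 ± 0.0737 FPKM in control libraries (SD, n = 3 each). The remaining 2 were DLL3 and NEURL1B.

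Of 34 transcription factors of secretory lineages 7 were listed (20.6%), all higher. Their groups did not overlap in FPKM, as in 736 of the 753 rows. Besides NEUROG3, CREB3L1, a factor of the secretory pathway, had 122 ± 2.56 FPKM in shTMPRSS4 and 53.0 ± 2.88 FPKM in control libraries, and TMM scaling over the listed rows left a log2 difference of 0.01. MYT1, a zinc finger factor of endocrine progenitors, had 2.7 ± 0.0473 FPKM in shTMPRSS4 and 0.83 ± 0.101 FPKM in control libraries (SD, n = 3 each). PAX4 and RFX6, endocrine factors, had 381 and 265 counts over the shTMPRSS4 libraries and none over the control libraries, at least 105-fold and at least 73.1-fold higher by the same floor. CBFA2T3 and MAFA were the other 2. SPDEF, the goblet cell factor downstream of ATOH1, was not analysed here.

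**Figure D4:**
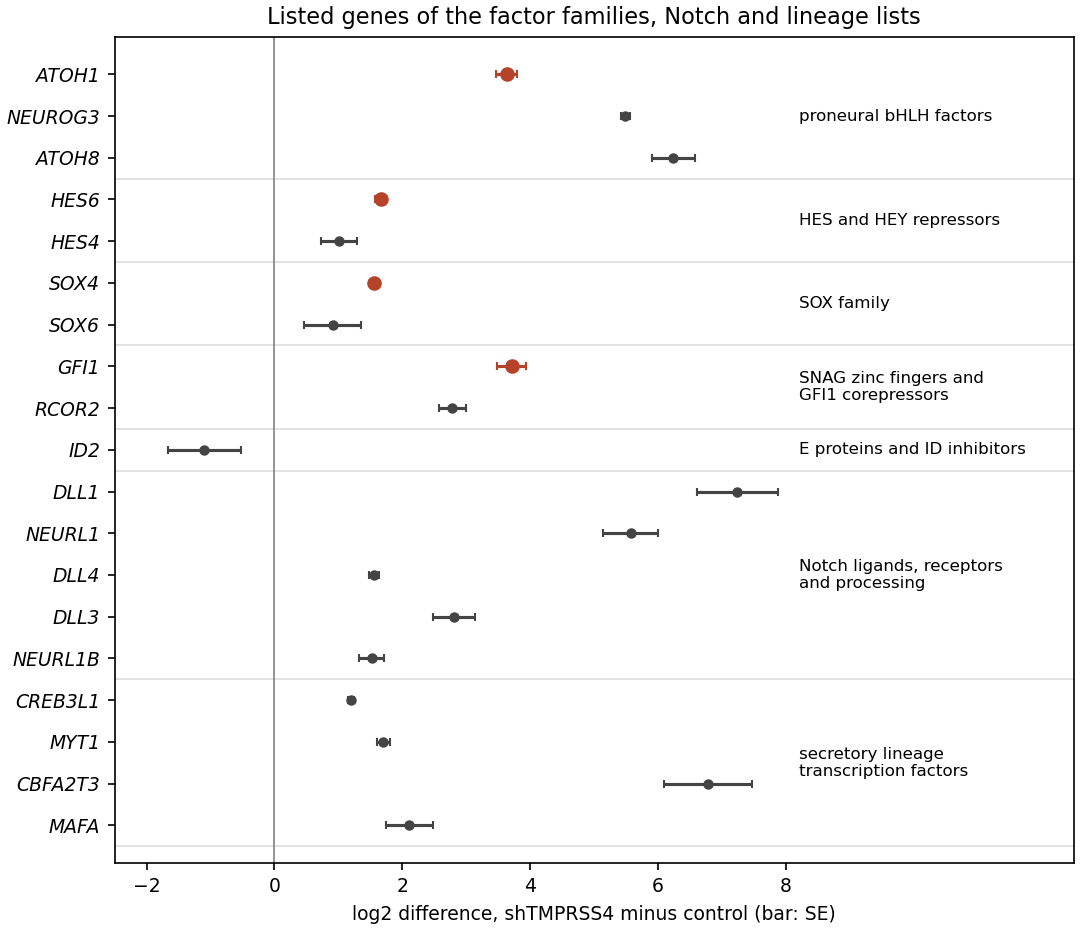
Log2 difference (shTMPRSS4 minus control, horizontal axis) with its SE over 3 against 3 libraries for the listed genes of the factor families, the Notch list and the secretory factor list, with the 4 genes in red. ID2 lies below 0 at -1.1, and the others lie above it, of which HES4 and SOX6 turn under TMM scaling over the listed rows; SOX5, PAX4 and RFX6, with no control counts, are not drawn.

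Markers of the cell types these factors serve are set beside the 4.98% listed of all genes adjusted over. The lists were chosen with earlier results of these data known, so these shares are a description and no enrichment was tested. Of 19 goblet cell markers 9 were listed (47.4%), 8 higher and 1 lower. ATOH1 is 1 of the 8 higher and was chosen as a listed gene, so it adds to this share by choice. The 8 others, REG4 included, summed to 204 to 208 FPKM in the shTMPRSS4 libraries and 78.9 to 110.0 FPKM in the control libraries. TFF3, a goblet trefoil factor, had 109.6, 111 and 109 FPKM in the shTMPRSS4 libraries, against 7.81, 11.5 and 10.8 FPKM in the control libraries. SPINK4, a goblet cell peptide, had 30.9 ± 0.766 FPKM in shTMPRSS4 and 0.0867 ± 0.0961 FPKM in control libraries, where it had 6 counts in all. FCGBP, a mucus protein, had 17.2 ± 0.382 FPKM in shTMPRSS4 and 4.12 ± 0.386 FPKM in control libraries. HEPACAM2, a cell adhesion protein, had 9.52 ± 1.11 FPKM in shTMPRSS4 and 0.05 ± 0.0265 FPKM in control libraries (SD, n = 3 each), with 11 control counts in all. The control levels of SPINK4 and HEPACAM2 are thus near the floor. REG4, a secreted lectin, was the lower one, with 24.9 ± 1.24 FPKM in shTMPRSS4 and 75.7 ± 15.4 FPKM in control libraries. The gel-forming mucin MUC2, the defining goblet product, was not analysed here.

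Of 33 enteroendocrine and islet markers 5 were listed (15.2%), all higher. They summed to 18.9 to 20.3 FPKM in the shTMPRSS4 libraries and 1.3 to 1.82 FPKM in the control libraries. NEUROG3, given above, is 1 of the 5 and made up most of that sum in the shTMPRSS4 libraries. RIMBP2, a synaptic scaffold, had 5.68 ± 0.23 FPKM in shTMPRSS4 and 0.753 ± 0.127 FPKM in control libraries, and SCGN, a calcium-binding protein, had 0.8 ± 0.271 FPKM in shTMPRSS4 and 0.163 ± 0.0611 FPKM in control libraries (SD, n = 3 each). The hormone gene GCG had 24 counts over the shTMPRSS4 libraries and none over the control libraries. Of 11 Paneth markers DLL4 alone was listed (9.09%), and of 16 tuft cell markers ALOX5 alone (6.25%), with 28 ± 0.312 FPKM in shTMPRSS4 and 11.7 ± 0.219 FPKM in control libraries. TMM scaling over the listed rows left a log2 difference of 0.06 for ALOX5. None of 22 absorptive enterocyte markers and none of 17 blood cell markers was listed. For lists of this size 0 or 1 listed gene is near the share over all genes. Of 16 pancreatic duct markers CEACAM6 alone was listed (6.25%), lower at 3.8 ± 0.125 FPKM in shTMPRSS4 and 12.3 ± 0.87 FPKM in control libraries. The ductal identity of the cells could thus not be checked further. Whether these markers and the 4 factors were raised in the same cells was not tested.

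**Figure D5:**
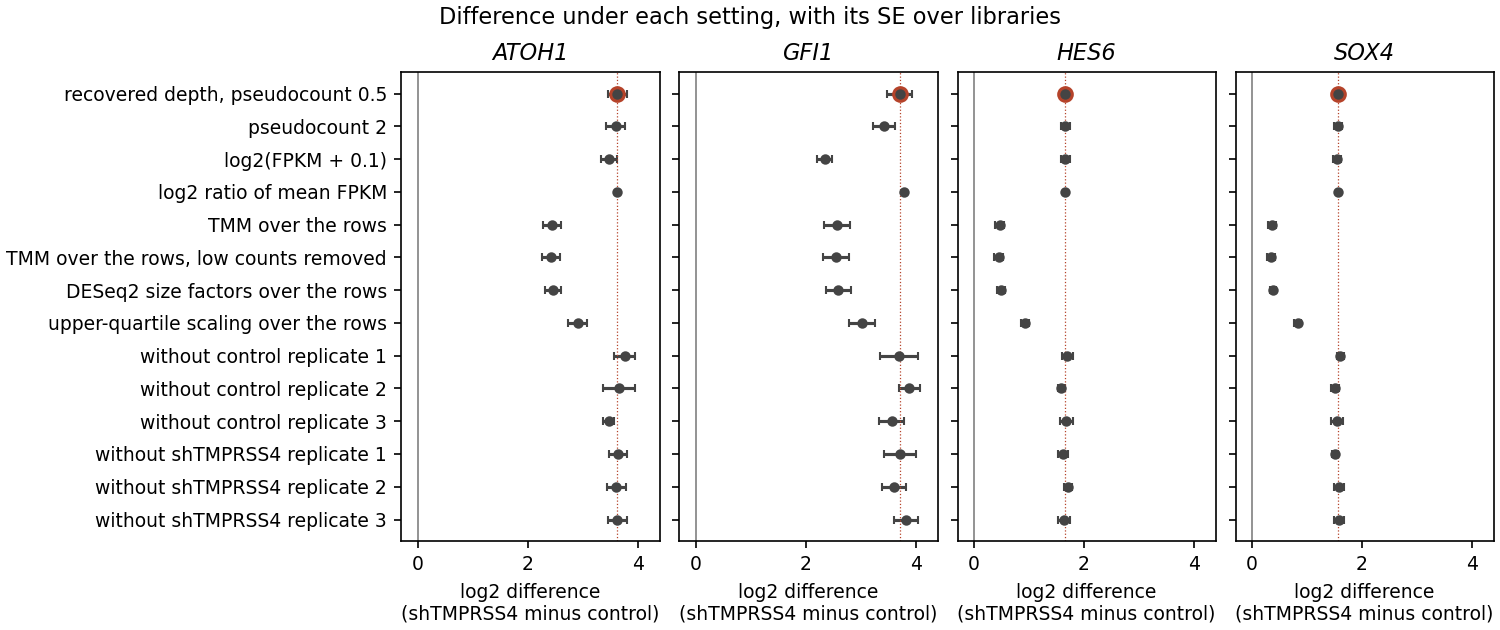
Log2 difference (shTMPRSS4 minus control, horizontal axis) of each gene with its SE under each way of scaling or adding a pseudocount and without each library in turn; the red point and dotted line give the value in the text. The 4 differences stay above 0, and scaling over the listed rows alone brings HES6 to 0.45 at the lowest and SOX4 to 0.35.

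The sizes above are relative to the recovered depth. TMM scaling over the listed rows, which are mostly higher, moved the median of the rows by -1.18 on the log2 scale, and under it the differences were 2.44 for ATOH1, 2.57 for GFI1, 0.47 for HES6 and 0.37 for SOX4. Of the 31-base words of their transcripts, none of ATOH1 and HES6 occurred in another annotated gene, with 0.245% of GFI1 and 2.66% of SOX4. HES6 and SOX4 overlap annotated genes on the opposite strand, AC012485.1 over 2396 bases, the whole span of HES6, and AL512380.2 over 2826 of the 5852 bases of SOX4. Without strand their reads cannot be told apart, so the levels of HES6 and SOX4 are uncertain in this respect. Within 1 Mb of the 4 genes the table held 1 other gene, RAMP1, 326153 bases from HES6, with a log2 fold change of 1.95 in the authors' deposited table.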

How the data were processed

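The 4 genes, the gene lists and the alternatives were chosen with earlier results of these data known. The table was analysed as deposited: its columns are, per the file headers, read counts and FPKM values by library, the authors' mean FPKM by group, their log2 fold change, and a p-value with its FDR. The deposited FPKM values have 2 decimals. The authors' log2 fold change equals the log2 of the quotient of both deposited means, with 0.001 in place of 0. Per the submitters' processing notes, the tools include Bowtie 0.12.2, and the builds listed are mm8 and mm9, both of mouse. All 753 identifiers matched human genes of GENCODE release 29, so the reference used is uncertain. The sources used here do not give the counting tool, the annotation or the test.

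Because every row was selected on the outcome, no new test was run. The count of genes adjusted over, 15117, is the ratio of FDR to p at the lowest p. Relative depth was the median over 159 rows, each with at least 200 counts in every library, of count divided by FPKM. The absolute depth came from 12 of these rows with 1 annotated transcript. On simulated counts the largest error of the recovered relative depth was 0.0026%. The simulated FPKM were built from those counts and known depths. This checks the calculation only and cannot show how the deposited FPKM were scaled. Intervals are exact conditional binomial and cover counting error only, and replicates may be technical. TMM and upper-quartile scaling (edgeR 4.0.16) and size factors (DESeq2 1.42.0, R 4.3.3) were alternatives, as were other pseudocounts and leaving out each library. Up to 3 genes of each of 18 fixed lists were named, those with the lowest deposited FDR. A few others were named outside this rule after their values were seen, some to complete a count. SPINK4, REG4, PAX4, RFX6 and GCG were given with values in this way, so they were chosen with those values known. The likeness rule took 3 rows per member.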

Additional observations from a re-analysis of the deposited data

How the results depend on the processing

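The 4 log2 differences kept their direction under every alternative run. Leaving out 1 library at a time gave 3.47 to 3.76 for ATOH1, 3.56 to 3.88 for GFI1, 1.59 to 1.71 for HES6 and 1.51 to 1.61 for SOX4. Scaling over the listed rows alone moved all 4, since these rows were selected and mostly higher. TMM gave 2.44 for ATOH1, 2.57 for GFI1, 0.47 for HES6 and 0.37 for SOX4. TMM after the filter on low counts gave 2.42, 2.55, 0.45 and 0.35 for the same genes, and DESeq2 size factors 2.46, 2.59, 0.49 and 0.38. Upper-quartile scaling gave 2.91, 3.02, 0.93 and 0.83. GFI1, with its 16 control reads, also moved with the pseudocount, to 3.42 with 2 added to the counts and to 2.34 with 0.1 added to FPKM. The other settings moved none of the 4 differences by more than the spread between replicates.

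Same-numbered libraries did not deviate together over 581 genes (correlations 0, 0.05 and -0.05 for numbers 1, 2 and 3). GFI1, HES6 and SOX4 did deviate alike in same-numbered libraries, and ATOH1 did not. For HES6 the deviations were 0.08, -0.13 and 0.05 in control replicates 1, 2 and 3. In shTMPRSS4 replicates 1, 2 and 3 they were 0.08, -0.1 and 0.03. The labels state no pairing, so whether the numbers mark pairs is not known. With the replicate block the differences were 3.63 for ATOH1, 3.71 for GFI1, 1.66 for HES6 and 1.56 for SOX4, as without it. Their SE was 0.17, 0.06, 0.01 and 0.02 with the block and 0.17, 0.23, 0.09 and 0.07 without it.

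Of 346 genes in the fixed lists 39 were listed as higher and 4 as lower, members included. The lower genes numbered 2 at an FDR under 0.001 and 8 under TMM over the rows, where HES4, SOX6, TUBB3 and MAP2 turned. Dividing HES6 by its longest annotated transcript, an alternative chosen after seeing the data, gave 109 FPKM instead of 197 in the shTMPRSS4 libraries. Depth limits GFI1 in control cells, and nothing can be said of genes that did not pass the authors' selection.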

Other observations

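Of 20 markers of hair cells and Merkel cells, sensory cells that also depend on ATOH1, PIEZO2 alone was listed (5.0%, against 4.98% of all genes adjusted over), a mechanically gated channel with 0.463 ± 0.15 FPKM in shTMPRSS4 and 0.0833 ± 0.0231 FPKM in control libraries (SD, n = 3 each). Of 19 neuron markers 2 were listed (10.5%), both higher. TUBB3, a beta-tubulin, had 88.0 ± 2.26 FPKM in shTMPRSS4 and 40.1 ± 1.43 FPKM in control libraries, and MAP2, a microtubule-associated protein, had 1.14 ± 0.176 FPKM in shTMPRSS4 and 0.557 ± 0.205 FPKM in control libraries. Both turned under TMM scaling over the listed rows, to -0.06 and -0.09 on the log2 scale. Of 25 acinar markers the elastase CELA3A alone was listed (4.0%), with 3.59 ± 0.65 FPKM in shTMPRSS4 and 0.293 ± 0.0416 FPKM in control libraries. Of 15 fibroblast and endothelial markers 3 were listed (20%), ACTA2 and FAP as higher and PECAM1 as lower. ACTA2, smooth muscle actin, had 10.1 ± 1.15 FPKM in shTMPRSS4 and 4.21 ± 0.541 FPKM in control libraries, and its log2 difference was 0.07 under TMM scaling. FAP, a fibroblast protease, had 1.8 ± 0.218 FPKM in shTMPRSS4 and 0.513 ± 0.0987 FPKM in control libraries, and PECAM1, an endothelial adhesion molecule, had 0.197 ± 0.0451 FPKM in shTMPRSS4 and 0.523 ± 0.14 FPKM in control libraries. Over all lists 39 genes other than the 4 members were listed, of which 35 were higher (89.7%, against 73.7% of all rows). The lists were chosen with earlier results known, so this share is a description.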
